A study of Mus musculus with 4 samples.

Results

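The genes described here encode the MCM helicase of DNA replication and the proteins that load it at replication origins. They are Mcm2, Mcm3, Mcm4, Mcm5, Mcm6 and Mcm7, the loaders Cdc6 and Cdt1, the Cdt1 inhibitor Gmnn, and Mcm10. Each of these 10 genes had exactly 1 probe set that the platform annotation gives to it alone, and that probe set was used. They are 10 of the 19938 genes that could be represented in this way on the array. RNA came from bone marrow cells sorted for Ter119 and CD71, which mark nucleated red cell precursors (erythroblasts), from mice on a C57BL/6 background. The groups were wild type mice and Parp2 knockout mice (Parp-2-/-), with 2 Affymetrix whole-transcript arrays each and 100 ng of total RNA per labelling. The age, sex and number of animals behind an array are not given in the sources used here, nor is a treatment. The titles end in the number 1 or 2 in both genotypes, and the meaning of that number is not stated. The arrays are called wild type 1, wild type 2, knockout 1 and knockout 2 after it. The series title names replicative stress in erythroid progenitors as its subject.

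The replication machinery is assembled in steps. In late mitosis and G1 the origin recognition complex and Cdc6 bind an origin, and Cdt1 brings the ring of Mcm2 to Mcm7, which is loaded around DNA in an inactive form; this is origin licensing. Geminin, the product of Gmnn, binds Cdt1 in S and G2 phase and blocks a repeat of loading, while Mcm10 acts later, when the loaded helicase is activated. Surplus loaded rings serve as dormant origins that a cell under replication stress can use. Erythroblasts divide several times while they mature and then leave the cell cycle, and the E2F factors drive transcription of most of these genes in G1 and early S phase.

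The promoters of the genes were read first, to describe their sequence. Whether that sequence bears on the array values was not tested. RefSeq promoter entries of the build GRCm38.p6, which run from 250 bases before to 50 bases after a gene's start, matched 8 of the 10 genes; Mcm4 and Gmnn had none. They were searched on both strands for the 4 spellings of the E2F consensus, TTTCCCGC, TTTGGCGC, TTTGCCGC and TTTCGCGC, some of which overlap each other on opposite strands. At least 1 match was found in 6 of the 8 genes, namely Mcm3, Mcm5, Mcm6, Mcm7, Cdc6 and Cdt1. Among all 32851 promoter entries of the same length 2.26% held a match. That share is over entries and not over genes, and a further entry of Mcm7 held no E2F match. Mcm2 and Mcm10 held none of these letters in this window. The matches of Mcm3 and Cdt1 lay after the start and are not printed. The pentamer CCAAT, which binds NF-Y, was in 6 of the 8 genes on either strand, against 37.4% of all entries. The stretches upstream of the start are shown for the genes with E2F matches there, 5′ to 3′ on the gene's strand, with the matches in capitals. In Mcm6 and in Mcm5 a match on each strand overlap, so that the capitals run together. A match is a description of letters and not a binding site.
Mcm6, positions -120 to -30, chr1:128359735-128359825, minus strand: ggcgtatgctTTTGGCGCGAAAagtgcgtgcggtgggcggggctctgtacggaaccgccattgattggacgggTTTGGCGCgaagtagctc
Mcm5, positions -163 to -132, chr8:75109346-75109377, plus strand: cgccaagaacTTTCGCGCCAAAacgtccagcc
Mcm7, positions -175 to -148, chr5:138172031-138172058, minus strand: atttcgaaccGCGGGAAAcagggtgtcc
Cdc6, positions -148 to -121, chr11:98908003-98908030, plus strand: ccggtggagaGCGGGAAAtcgcctgggg

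The arrays were compared before the genotypes. Over the 23410 probe sets with a gene symbol, array medians lay between 5.23 and 5.49 on the log2 scale. The interquartile range was 1.98 on knockout 2 and from 2.62 to 2.94 elsewhere. Median centring and repeated quantile normalisation, used below, were computed over the same probe sets. Of the 2613 genes with a mean of 8 or more, called bright genes here, 59.8% had their lowest value on knockout 2. Of the 10 genes 9 were bright, with Gmnn just below, and their single values ran from 6.76 to 11.0. Shares among bright genes are therefore given beside those of all genes; that level was chosen after the values were seen. Parp2 itself (probe set 10414497) read 8.24 and 7.65 in wild type and 7.11 and 6.70 in knockout, with both knockout values the lower ones. Of the erythroblast markers 10 of 11 had a probe set of their own, with means between 9.77 and 10.8 on the 4 arrays; the transferrin receptor gene Tfrc (CD71) lay between 10.35 and 11.43.

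The main question was whether the licensing genes differed between Parp2 knockout and wild type. Of the 10 genes 7 had a lower mean and 3 a higher mean in the knockout, against 41.5% of all genes and 69.2% of bright genes with a lower mean. The median difference (knockout minus wild type) was -0.08, against +0.08 over all genes and -0.14 over bright genes. This split turned with the scaling, since 9 of the 10 means were lower with arrays centred on their medians (median -0.16) and only 3 with quantile normalisation repeated (median +0.08). Limma's moderated test called 0 of the 10 at an adjusted p under 0.05, where it called 0 of 23410 probe sets (0%). At an unadjusted p under 0.05 it also called 0 of the 10, against 2.08% of all probe sets; their unadjusted p-values ran from 0.219 to 0.973. These p-values measure only the spread between arrays, which may be technical, since separate animals are not stated in any label. In RNA of sorted cells a smaller share of cycling cells and less RNA per cell cannot be told apart.

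The helicase ring is described gene by gene, each array value being a deposited log2 value. Mcm2, the subunit at whose junction with Mcm5 the ring opens, read 10.62 on wild type 1, 9.97 on wild type 2, 10.56 on knockout 1 and 10.26 on knockout 2. Both knockout values lay between those of the wild type arrays, and the difference was +0.12 ± 0.40 (SE, 2 arrays per group). Mcm3 read 10.11 and 9.38 in wild type and 9.91 and 8.90 in knockout, in the order of the numbers 1 and 2. Its difference, -0.34 ± 0.49, was the largest of the ring in size, and the groups overlapped. Mcm4, which forms with Mcm6 and Mcm7 the part of the ring with helicase activity of its own, read 9.95 and 9.57 in wild type and 10.32 and 9.003 in knockout. The knockout arrays of Mcm4 stood on either side of the wild type ones and were 1.32 apart, the widest gap within a genotype among the 10 genes, for a difference of only -0.10 ± 0.51.

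Mcm5 read 9.45 and 9.32 in wild type and 9.71 and 9.08 in knockout. Again the knockout arrays enclosed the wild type ones, and the difference was +0.01 ± 0.39. Mcm6 read 10.97 and 10.43 in wild type and 10.93 and 10.13 in knockout. Its knockout 1 value was within 0.04 of wild type 1, and the difference was -0.17 ± 0.44. Mcm7 read 10.59 and 10.47 in wild type and 10.70 and 10.22 in knockout, a difference of -0.07 ± 0.37. The 6 ring genes thus had 4 lower and 2 higher means, a median difference of -0.08, and overlapping groups in every case.

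The loaders showed the same layout. Cdc6, the ATPase that joins the origin recognition complex, read 9.25 and 9.24 in wild type, the closest pair among the 10 genes, and 9.60 and 8.97 in knockout. The difference amounted to +0.04 ± 0.39, with the knockout arrays on either side of the wild type pair. Cdt1, which escorts the ring to the origin, read 9.53 and 8.90 in wild type and 9.55 and 8.78 in knockout, a difference of -0.05 ± 0.44. Mcm10 read 8.51 and 8.22 in wild type and 8.72 and 7.78 in knockout, a difference of -0.12 ± 0.44.

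Gmnn was the exception in the layout of its groups. It read 7.97 and 7.83 in wild type and 7.82 and 6.76 in knockout. The knockout values were the lower pair without overlap, which held for 9.62% of all genes and 11.9% of bright ones, but knockout 1 did so by 0.02 only. This layout turned with the scaling. After quantile normalisation was repeated the groups stayed apart, at 7.76 and 7.84 in wild type and 7.57 and 7.17 in knockout. With arrays centred on their medians knockout 1 (7.91) lay above wild type 2 (7.82), so the groups then overlapped. The difference was -0.61 ± 0.45 (SE, 2 arrays per group), or 1.53-fold lower, with an unadjusted limma p of 0.219 and an adjusted p of 1.00. Without knockout 2 it was -0.09, and without knockout 1 it was -1.14. The ratio of the inhibitor to its target was not tested.

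**Figure D1:**
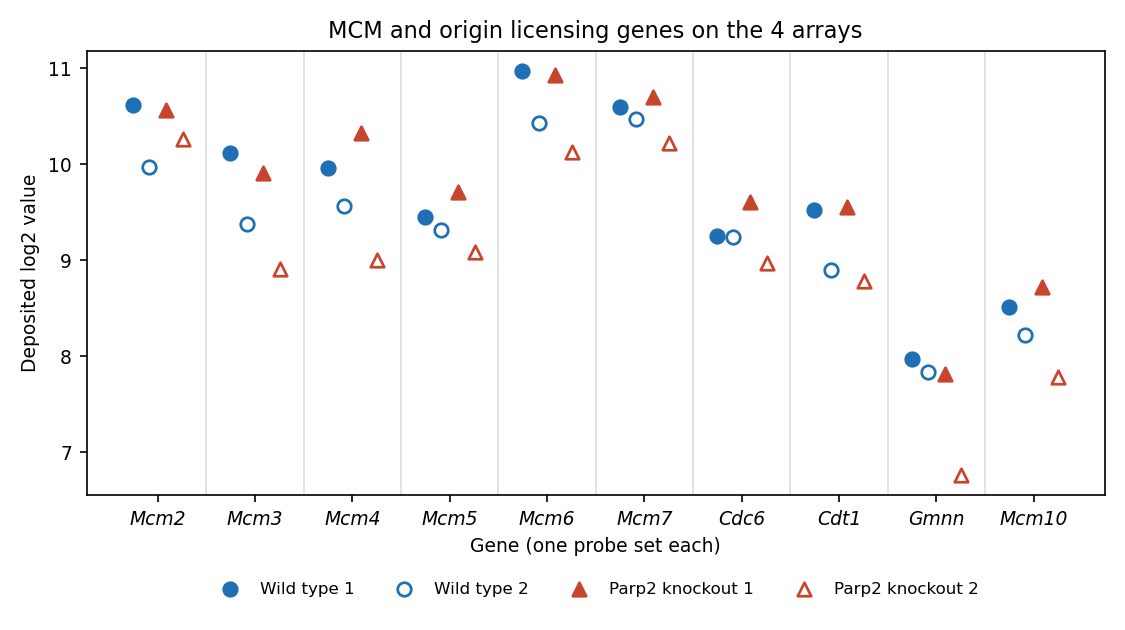
Deposited log2 values (vertical axis) of the 10 genes (horizontal axis) on each array; circles are wild type, triangles Parp2 knockout, filled symbols number 1 and open symbols number 2. Knockout 2 is the lowest array for 9 of the 10 genes, and in these deposited values filled symbols lie above the open symbols of the same genotype in every gene, which held for 5 genes after quantile normalisation was repeated.

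With 2 arrays per group the intervals are wide. The 95% interval of the difference from limma ran from -0.92 to +0.94 for Mcm5, from -0.96 to +0.82 for Mcm7 and from -0.88 to +0.97 for Cdc6. For Mcm4 it ran from -1.32 to +1.12 and for Gmnn from -1.69 to +0.46. A halving or a doubling of the level (1 on the log2 scale) lies just outside the narrowest of these and inside the widest. These intervals are not adjusted for the number of probe sets. After adjustment larger differences also went uncalled. The lowest adjusted limma p of any probe set was 0.744, while differences over all genes ran from -4.08 to +3.24.

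The genotypes were then compared within each title number. Between the arrays of number 1, 6 of the 10 genes were higher in the knockout, as were 49.4% of all genes and 58.9% of bright genes, and the median difference was +0.07. Mcm4 (+0.37), Cdc6 (+0.36), Mcm5 (+0.26) and Mcm10 (+0.20) lay highest, and Mcm3 (-0.20) and Gmnn (-0.16) lowest. Between the arrays of number 2, 9 of the 10 were lower in the knockout, against 41.7% of all genes and 83.8% of bright genes, with a median of -0.29 (-0.38 over bright genes). Gmnn (-1.07), Mcm4 (-0.56), Mcm3 (-0.48) and Mcm10 (-0.44) lay lowest here, and Mcm2 (+0.29) alone was higher. Mcm3, Mcm6 and Gmnn were lower within both numbers, which held for 20.7% of all genes and 35% of bright ones, and 0 of the 10 were higher within both, against 28.4% and 10%. The other 7 had opposite signs, against 50.8% of all genes and 55% of bright genes, and for 6 of them the knockout was higher within number 1 and lower within number 2. These are differences between single arrays and have no test. After quantile normalisation was repeated, the median difference within number 2 was +0.01 and that within number 1 was +0.05.

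**Figure D2:**
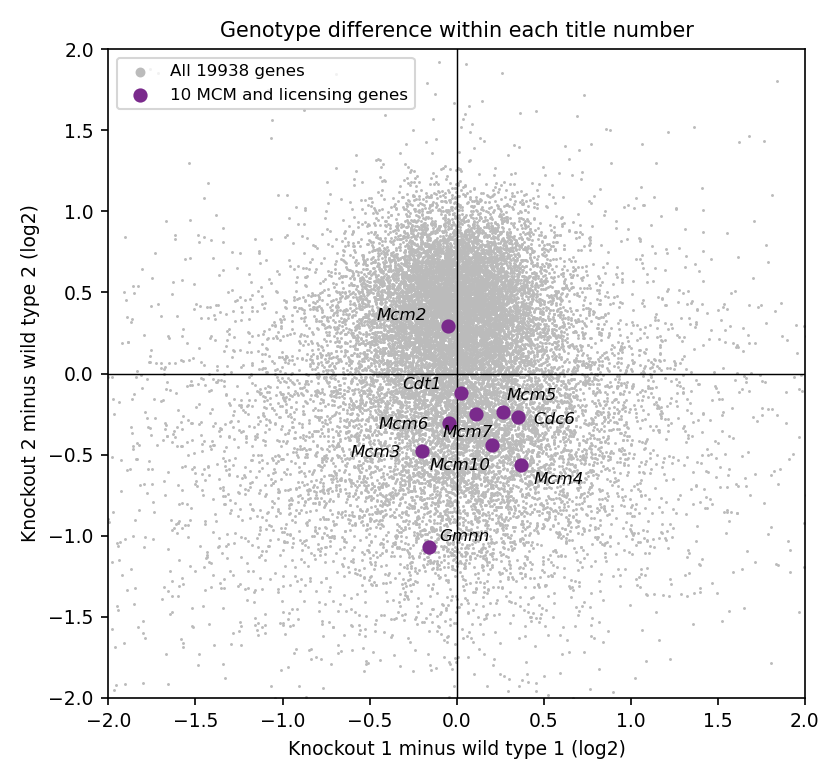
Knockout minus wild type difference (log2) between the number 1 arrays (horizontal axis) and between the number 2 arrays (vertical axis), for all genes in grey and the 10 licensing genes in purple; 284 genes lie outside the axes. Of the 10 genes 9 lie below the horizontal zero line, and they stand on both sides of the vertical one.

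Across the numbers the comparison turned with the pairing. Knockout 1 against wild type 2 gave higher knockout values for 9 of the 10 genes (51.9% of all genes, 60.1% of bright genes) with a median of +0.50, led by Mcm4 (+0.76) and Cdt1 (+0.65). Knockout 2 against wild type 1 gave lower knockout values for 10 of 10 (40.2% of all genes, 71% of bright genes) with a median of -0.74, led by Gmnn (-1.21) and Mcm3 (-1.21). After quantile normalisation was repeated the latter count was 6 of 10, with a median of -0.15, and the former was 9 of 10. These pairings reuse the same 4 arrays and are shown side by side only to describe the values.

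In 9 of the 10 genes the mean difference between numbers was larger in size than that between genotypes in the deposited values; Gmnn was the other. This held for 60.7% of all genes and 78.8% of bright genes, and for 5 of the 10 after quantile normalisation was repeated. In wild type the number 2 array was lower than the number 1 array for 10 of 10 genes, against 54.3% of all genes and 58.6% of bright genes, with a median difference of -0.34. The gaps in wild type ran from -0.73 in Mcm3 to -0.01 in Cdc6, with -0.64 in Mcm2, -0.63 in Cdt1 and -0.54 in Mcm6. In knockout the number 2 array was also lower for 10 of 10, against 38.7% of all genes and 74.9% of bright genes, with a median of -0.785, from -1.32 in Mcm4 to -0.30 in Mcm2. Number 2 was thus lower in both genotypes for 10 of 10, against 26.3% of all genes and 55.2% of bright genes, and for 5 of 10 after quantile normalisation was repeated. The gap was wider in knockout than in wild type for 9 of the 10 in the deposited values, Mcm2 being the other. The share of all genes with a wider gap in knockout was not computed. Bright genes had median gaps of -0.19 in wild type and -0.57 in knockout. After quantile normalisation was repeated, the gap was narrower in knockout for Mcm2, Mcm3, Mcm6, Cdc6 and Cdt1 and wider for the rest.

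Both number 2 arrays lay below both number 1 arrays for 9 of the 10 genes, against 20.9% of all genes and 49% of bright genes; after quantile normalisation was repeated this held for 5 of the 10. Gmnn did not meet this, since its wild type 2 value (7.83) was above its knockout 1 value (7.82). In a limma fit with genotype and number as terms, which leaves 1 residual degree of freedom, the number called 0 of the 10 at an adjusted p under 0.05, against 9.06% of probe sets. The adjusted p-values ran from 0.199 for Mcm3 to 0.82 for Mcm7. Without adjustment 2 of the 10 had p under 0.05, Mcm3 (-0.87 ± 0.41, SE) and Mcm4 (-0.85 ± 0.41). This fit gives every probe set the same SD, so that it ranks genes by the size of the difference alone. In it the genotype likewise called 0 of the 10, against 1.17% of probe sets.

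**Figure D3:**
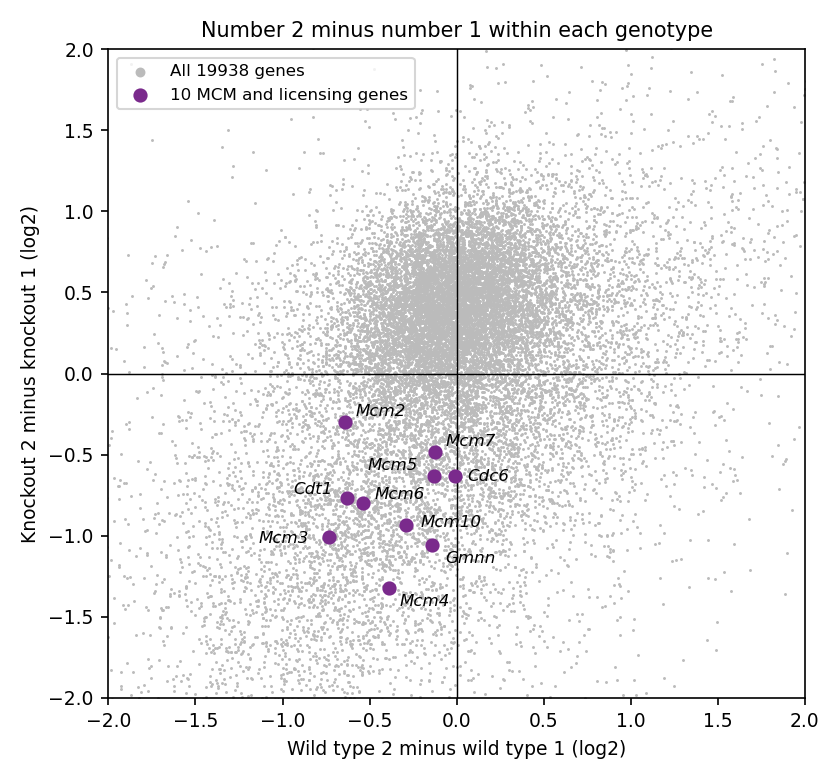
Number 2 minus number 1 difference (log2) in wild type (horizontal axis) and in Parp2 knockout (vertical axis), for all genes in grey and the 10 licensing genes in purple; 863 genes lie outside the axes. In the deposited values shown, the 10 genes lie in the quadrant where number 2 is lower in both genotypes, with Cdc6 at the edge in wild type; 5 did so after quantile normalisation was repeated.

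The pattern by number depended on the scaling of the arrays. After quantile normalisation was repeated, which gives knockout 2 the same range as the others, number 2 was lower in wild type for 6 of the 10 genes (53.9% of all genes) and in knockout for 9 of 10 (46.1% of all genes). It was lower in both genotypes for 5 of the 10, namely Mcm3, Mcm4, Mcm6, Cdt1 and Mcm10, against 30.3% of all genes. The median differences became -0.16 in wild type and -0.25 in knockout. Mcm3 kept -0.60 in wild type and -0.47 in knockout, and Mcm4 -0.25 and -0.81. Mcm7 (+0.02 and -0.05) and Mcm5 (+0.07 and -0.09) were then nearly level. Mcm2 went apart, with -0.56 in wild type and +0.13 in knockout. In contrast, centring arrays on their medians left 10 of 10 lower in both genotypes, with medians of -0.44 and -1.05.

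**Figure D4:**
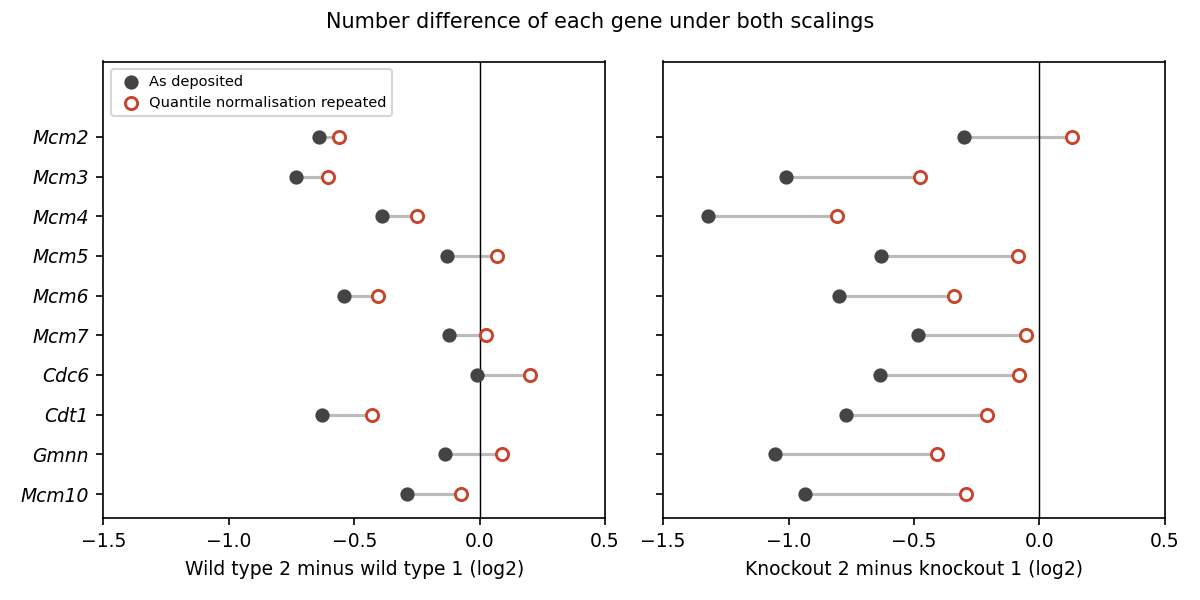
Number 2 minus number 1 difference (log2, horizontal axes) of each gene (vertical axis) in wild type (left) and Parp2 knockout (right), from the deposited values (filled) and after repeated quantile normalisation (open). Open symbols lie to the right of the filled ones in every gene, and Mcm4 and Mcm3 have the lowest open symbols in knockout.

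Genes that share the pathway were read from 6 lists, of which 57 of 58 genes had a probe set. Limma called 0 of the 57 by genotype at an adjusted p under 0.05 and 0 at an unadjusted p under 0.05. Their median difference was -0.09, with 35 lower and 22 higher means. With quantile normalisation repeated that median was +0.07. Both knockout arrays lay above both wild type arrays for 5 of the 57 genes and below them for 3. Over all 19938 genes these counts were 3270 and 1918, and over the 2613 bright genes 75 and 310. Where the groups do not overlap, leaving 1 array out cannot turn the direction.

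The origin recognition list holds the subunits Orc1 to Orc6, the stabilising factor Lrwd1 and the acetyltransferase Kat7, which modifies histones at origins. Of these 8 genes 5 had lower and 3 higher means in the knockout, with a median difference of -0.105. Kat7 read 8.23 and 8.88 in wild type and 7.63 and 8.13 in knockout (-0.68 ± 0.41), with both knockout arrays below; with 1 array left out it ranged from -1.004 to -0.35. Orc5 read 7.24 and 7.61 in wild type and 7.94 and 7.83 in knockout (+0.46 ± 0.36, or +0.27 to +0.64 with 1 array left out), with both knockout arrays above. Orc1, the subunit whose level follows the cell cycle most, went opposite ways by number. It read 7.85 and 8.54 in wild type and 8.63 and 7.49 in knockout, +0.78 within number 1 and -1.05 within number 2.

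Origin firing genes turn a loaded ring into a moving helicase. Of 13 genes 7 had lower and 6 higher means, and the median was -0.01. The GINS subunits did not go one way: Gins4 differed by +0.75 ± 0.45 with both knockout arrays above (+0.24 without wild type 1, +1.26 without wild type 2), and Gins3 by -0.75 ± 0.59 and Gins2 by -0.39 ± 0.62 with overlap. Donson (-0.61 ± 0.39), which helps to assemble the active helicase, had both knockout arrays below, and ranged from -0.89 to -0.33 with 1 array left out. Topbp1 (-0.28) also had both knockout arrays below, though knockout 1 minus wild type 2 was only -0.003. The kinase Cdc7 (+0.12) and its activator Dbf4 (-0.12) had small differences. Of the licensing control list, 8 of 12 genes had lower means. Its ubiquitin ligase genes that direct the destruction of Cdt1 were Dtl at -0.35, Ddb1 at -0.15, Cul4a at -0.10, Cul4b at -0.70 ± 0.49 and Skp2 at -0.24. Cul4b was at -0.17 without knockout 2 and -1.23 without knockout 1. Cyclin E1 gene Ccne1 (+0.39) had both knockout arrays above, as did Mcidas (+0.47 ± 0.37, or +0.30 to +0.64 with 1 array left out), a geminin relative. Gmnc (+0.34) did so too. Mcidas and Gmnc are dim, with wild type means of 5.72 and 3.75.

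The relatives of the ring and the S phase genes completed the lists. Of 5 relatives 3 had lower means; Mcm9 differed by +0.55 ± 0.53 and Mcmdc2 by -0.59 ± 0.67, while Mcm8, the partner of Mcm9, differed by -0.14. Of 13 S phase partners, which include the sliding clamp gene Pcna (-0.14), 9 had lower means, with a median of -0.09. Prim1, a primase subunit, differed by -0.38 ± 0.45 and Uhrf1, which maintains DNA methylation, by -0.25 ± 0.37. Without knockout 2 the difference of Prim1 was +0.12 and that of Uhrf1 -0.09; without wild type 1 that of Uhrf1 was -0.08.

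By number the lists were set beside the ring genes. In wild type the number 2 minus number 1 median was +0.72 for the gene neighbours, +0.33 for origin recognition, +0.34 for relatives, +0.25 for firing, +0.13 for licensing control and -0.105 for S phase partners (7 of 13 lower), beside -0.46 for the ring genes; the difference between the lists was not tested. In knockout the median was +0.26 for the gene neighbours and between -0.54 and -0.29 for the other lists, beside -0.72 for the ring. Limma with genotype and number called 4 of the 57 genes by number, against 9.06% of probe sets. Mcmdc2 was higher in number 2 (+1.44, adjusted p = 0.0077). Its probe set is dim, reading 4.56 and 6.34 in wild type and 4.31 and 5.41 in knockout. The other 3 were lower, against 6.58% of probe sets: Gins3, Ung and Gins2 (adjusted p = 0.0189), which read 10.07 and 8.96 in wild type and 9.87 and 8.36 in knockout. The proliferation marker Mki67 went the other way, from 10.64 to 12.03 in wild type and from 11.20 to 11.73 in knockout. Bright genes had medians of -0.19 in wild type and -0.57 in knockout. These values by number, Mki67 included, are the deposited ones, and those of the lists after repeated quantile normalisation were not computed. The lists also differed in level, with wild type 1 means from 6.07 (gene neighbours) to 9.8 (S phase partners), beside 10.3 (ring genes).

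**Figure D5:**
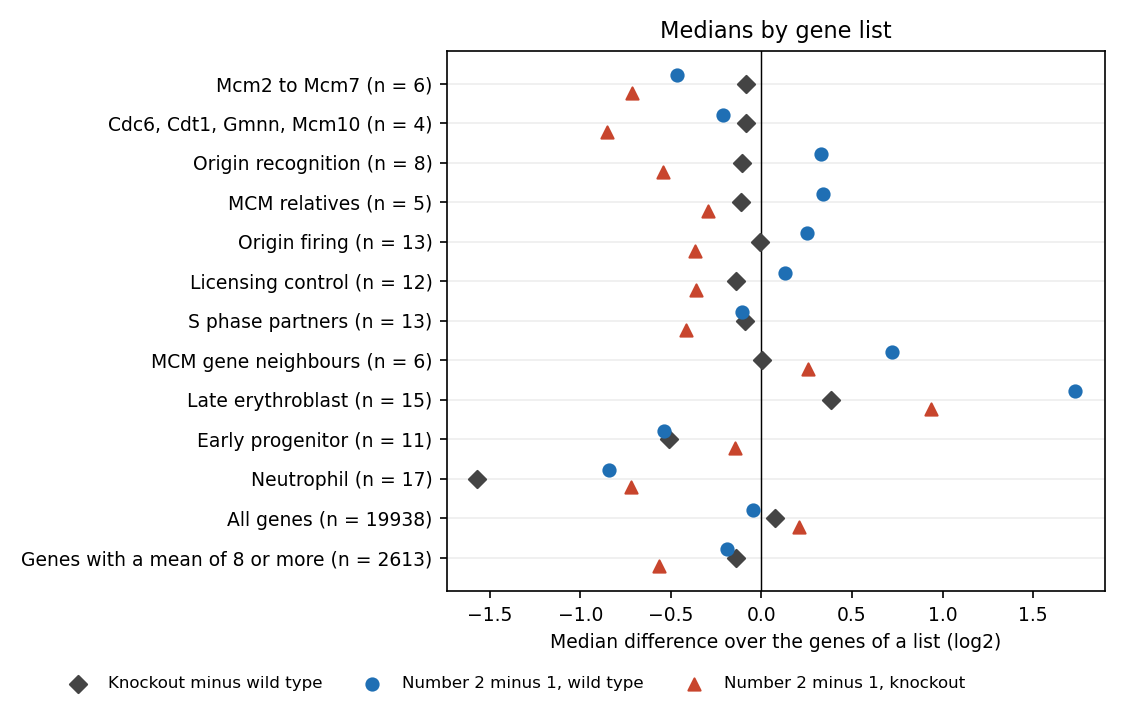
Median difference (log2, horizontal axis) over the measured genes of each list (vertical axis, n in brackets): diamonds are knockout minus wild type, circles number 2 minus number 1 in wild type, and triangles the same in knockout. In these deposited values the circle (-0.46) and triangle (-0.72) of the ring genes lie left of zero and the diamond (-0.08) is near it. Late erythroblast genes lie to the right. The list medians by number after repeated quantile normalisation were not computed.

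Some genes lie beside or inside the MCM genes. The microRNA genes Mir106b, Mir93 and Mir25 lie within the span of Mcm7 in the RefSeq table. Their main mature products are shown because the host gene and its microRNAs had opposite differences by number in the deposited values; Mcm7 was nearly level between numbers after quantile normalisation was repeated. The seed, bases 2 to 8, is in capitals, and the first 2 share theirs (sequences from RefSeq, GRCm38.p6).
miR-106b-5p, chr5:138165787-138165807, minus strand: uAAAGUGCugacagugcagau
miR-93-5p, chr5:138165574-138165596, minus strand: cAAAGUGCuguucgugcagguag
miR-25-3p, chr5:138165332-138165353, minus strand: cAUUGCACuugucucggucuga
The Mir106b probe set read 4.89 and 5.67 in wild type and 4.73 and 5.38 in knockout. That of Mir25 read 6.22 and 6.89 in wild type and 6.15 and 6.998 in knockout. Both were higher on the number 2 array of each genotype, where Mcm7 was lower. Many genes were higher there as well: number 2 was the lower array for 54.3% of all genes in wild type and only 38.7% in knockout. Knockout 2 held the highest value of 44.5% of all genes. The number differences of the microRNA probe sets after repeated quantile normalisation were not computed. Mir93 read 4.81 and 5.04 in wild type and 5.02 and 6.17 in knockout, and its genotype difference of +0.67 ± 0.47 was +0.096 without knockout 2. That of Mir106b was -0.22 ± 0.44. These probe sets are dim, and total RNA labelling does not tell mature microRNAs from their precursors. Prkdc, a DNA repair kinase gene next to Mcm4, read 6.29 and 7.22 in wild type and 6.83 and 6.66 in knockout, a difference of -0.01, with an order of arrays unlike that of Mcm4.

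Genes with the profile most like the mean of Mcm2 to Mcm7 were sought among the 9969 genes at or above the median level, by the root mean square distance of values minus the gene's own mean over the 4 arrays. The nearest were the ribosomal protein gene Rpl19 (distance 0.0077), the carboxypeptidase gene Prcp (0.018), Dmap1 (0.020), the forkhead gene Foxj2 (0.025) and Pcnp (0.030). Rpl19 read 12.27 and 11.84 in wild type and 12.33 and 11.57 in knockout. Among the members themselves Mcm6 lay at 0.060, Cdt1 at 0.075 and Mcm10 at 0.080, and Gmnn at 0.30 was farthest. With 4 arrays such a profile is shared by many genes, and no likeness of function is implied.

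Markers of maturation and of other cells differed in the same comparisons. For the counts below, a lower mean in the knockout held for 41.5% of all genes and 69.2% of bright genes. Number 2 was the lower array for 54.3% and 58.6% in wild type, and for 38.7% and 74.9% in knockout. Late erythroblast genes, 15 of 16 measured, were higher in number 2 for 15 of 15 in both genotypes, with medians of +1.73 in wild type and +0.94 in knockout. Their mean level was 9.30 and 11.2 on wild type 1 and 2 and 10.2 and 11.1 on knockout 1 and 2. By genotype their median was +0.38, but +0.805 within number 1 and -0.06 within number 2. Within number 2, 11 of 15 were lower in the knockout, against 41.7% of all genes and 83.8% of bright genes. Early progenitor genes had 10 of 11 lower means in the knockout. Neutrophil markers were lower in the knockout for 17 of 17, with mean levels of 10.8 and 9.92 in wild type and 9.36 and 8.60 in knockout, and lower in number 2 for 15 of 17 within each genotype. B cell markers were lower in the knockout for 10 of 13 (means 6.53 and 7.03 in wild type, 5.72 and 5.88 in knockout). Monocyte and macrophage markers were lower for 11 of 13 (7.05 and 7.80 in wild type, 6.45 and 7.25 in knockout), and those of basophils, mast cells and eosinophils for 10 of 11 (6.72 and 6.25 in wild type, 5.50 and 5.67 in knockout). T and NK cell markers were lower for 8 of 10 (5.23 and 5.56 in wild type, 4.73 and 5.17 in knockout), and megakaryocyte markers higher for 5 of 6. The part of these shifts in the values of the licensing genes was not tested.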

How the data were processed

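The deposited table held log2 values of 35511 probe sets, with a column per array that carries the sample's own name. The authors' tools were R 3.0.2, RMA and limma, per the submitters' processing notes, with no roles given; RMA corrects background, quantile-normalises and summarises on the log2 scale and tends to understate folds of dim and very bright probe sets. Genes were named from the platform annotation; 23410 probe sets had a symbol. All 171 genes named or listed here with a probe set had a gene ID in the RefSeq table (GRCm38.p6). The genotypes were tested in R 4.3.3 by lmFit and eBayes of limma 3.58.1 (2 against 2 arrays), with Benjamini-Hochberg adjustment over the 23410 probe sets; the fit had 2 residual and 4.77 prior degrees of freedom. An exact permutation test of 2 against 2 cannot go below p = 0.333 and was not used. The replicate numbers are not known to pair the arrays: 2 pairs share a number, and the differences between numbers in the genotypes correlated at 0.468 across probe sets. The members and lists were chosen with earlier results of these data known. Genes named are the 10 members, Parp2, those of each pathway list with the 2 lowest p, further listed genes, and the 5 nearest profiles. Scripts were tested on simulated data. The number of arrays limits the precision.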

Additional observations from a re-analysis of the deposited data

How the results depend on the processing

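The count of licensing genes past the test stayed at 0 in all settings tried, which are named here: the replicate block, each array left out, median centring, repeated quantile normalisation, only brighter probe sets, array weights, moderation with trend and robust, all rows, and means over a gene's probe sets. Over all probe sets 0 passed, which became 274 with the title number as a replicate block, 8 with trend and robust moderation, 486 at an unadjusted p under 0.05, and 0 to 62 with 1 array left out (5 without wild type 1, 62 without wild type 2); the cause was not tested. The block changed no call among the licensing genes. Of the settings that keep all arrays, only median centring and repeated quantile normalisation changed the difference of a licensing gene. The others alter the test and left each difference as it was, so no direction could turn there. With those included, 74 of 80 single-gene results kept their direction, a count that therefore says little about stability. The reversals were Mcm5 (-0.059) and Cdc6 (-0.030) with centring, and Mcm4 (+0.064), Mcm7 (+0.062), Cdt1 (+0.12) and Mcm10 (+0.087) with quantile normalisation repeated. With 1 array left out the ranges were -0.20 to +0.44 for Mcm2, -0.84 to +0.17 for Mcm3, -0.76 to +0.56 for Mcm4, -0.30 to +0.33 for Mcm5, -0.57 to +0.23 for Mcm6, -0.31 to +0.17 for Mcm7, -0.27 to +0.36 for Cdc6, -0.43 to +0.34 for Cdt1, -0.58 to +0.35 for Mcm10, -0.19 to +1.28 for Mcm9, -1.47 to +0.30 for Mcmdc2, -0.61 to +0.17 for Mir106b and -0.87 to +0.12 for Prim1. The median genotype difference of the 10 genes ranged from -0.50 (without knockout 1) to +0.30 (without knockout 2) and was +0.08 with quantile normalisation repeated. Their median difference by number was -0.785 with either wild type array left out and -0.34 with either knockout array left out. The genotype that keeps both arrays alone sets this value. These therefore repeat the medians given above for knockout and wild type and do not check stability. With quantile normalisation repeated the median was -0.20, where the range of knockout 2 is set to that of the others.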
